A study of Arabidopsis thaliana with 12 samples.

Results

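Uninduced leaves of a CPR5-C transgenic line were compared with wild-type leaves sprayed with dexamethasone, probe set by probe set, on 3 arrays per group. These 6 arrays are part of a series of 12 ATH1 arrays of mature Arabidopsis thaliana leaves in the Col-0 background. The transgenic plants carry Dex:YFP-CPR5-C, in which dexamethasone, a synthetic glucocorticoid, switches on a yellow fluorescent protein fused to a CPR5 fragment. In the first group this line was sprayed with water, and in the second group wild-type plants were sprayed with 50 µM dexamethasone. All plants were 4 weeks old, leaves were taken 24 h after the spray, and the labels call the 3 samples of each group biological replicates. The remaining arrays came from wild type sprayed with water and from the CPR5-C line sprayed with dexamethasone, again 3 of each. The chosen pair leaves out the wild-type water arrays, and its groups differ in both the genotype and the spray, so an effect of the transgene without inducer and an effect of dexamethasone on wild type cannot be told apart. How many independent lines were used is not given in the sources used here.

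CPR5 is a membrane protein of the plant nuclear pore complex. Mutants that lack it show constitutive defence gene expression, spontaneous lesions and early senescence, and CPR5 restrains programmed cell death in immunity. Dexamethasone is not a plant hormone, and it is used as an inducer of engineered promoters. WRKY factors, jasmonate, salicylic acid and calcium sensors carry much of the defence and stress signalling of leaves, and expansins and related proteins loosen the cell wall during growth.

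Values were log2 signals centred for each probe set on its median over the 12 arrays, so a value of 0 is that median and no level of one gene can be set against another's. For the same reason the leaf identity of the samples could not be checked on absolute marker levels. No probe set was annotated as CPR5, so neither the transgene nor leakage of its promoter without inducer could be checked. Among the array controls, the plant transcript controls differed by 0.0042 between the groups and the poly-A spikes by -0.11, with array means of -0.047 to 0.077 in CPR5-C water and 0.059 to 0.269 in WT dexamethasone.

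Of 22746 probe sets tested with limma, 344 differed at an adjusted p under 0.05, which is 1.51% of those tested. Of these, 253 (1.11%) were higher and 91 (0.400%) were lower in the uninduced CPR5-C line, so 73.5% of the calls were higher. The median difference was 0.57 for the higher probe sets (range 0.26 to 1.84) and -0.41 for the lower ones (range -0.89 to -0.27). A difference of at least 1 on the log2 scale was reached by 37 of the higher and 0 of the lower probe sets. The 3 arrays of one group did not overlap with those of the other for any called probe set, against 19.5% of all probe sets. The median difference of all probe sets was 0.010, and the median standard error was 0.085. Scaling each array on its poly-A spikes moved that median to 0.12 and gave 225 calls, 92% of them higher. Of the 344 main calls, 182 were among these. Quantile normalization gave 1042 calls, 52.5% of them higher, and array weights gave 721, 59.8% of them higher, so the share of higher calls depended on the processing. The sizes did too: under quantile normalization 268 calls reached 1, and all 48 called genes that were followed over the alternatives grew by 1.64 to 3.15 times, WRKY53 from 1.43 to 2.53. Array SDs were 0.131 to 0.164 in the pair and 0.677 to 0.693 in the induced line. Quantile normalization gives all arrays one distribution, which widens the values of arrays with a small SD. The median residual SD also rose under it, from 0.106 to 0.150, and the cause of the added calls was not tested.

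**Figure D1:**
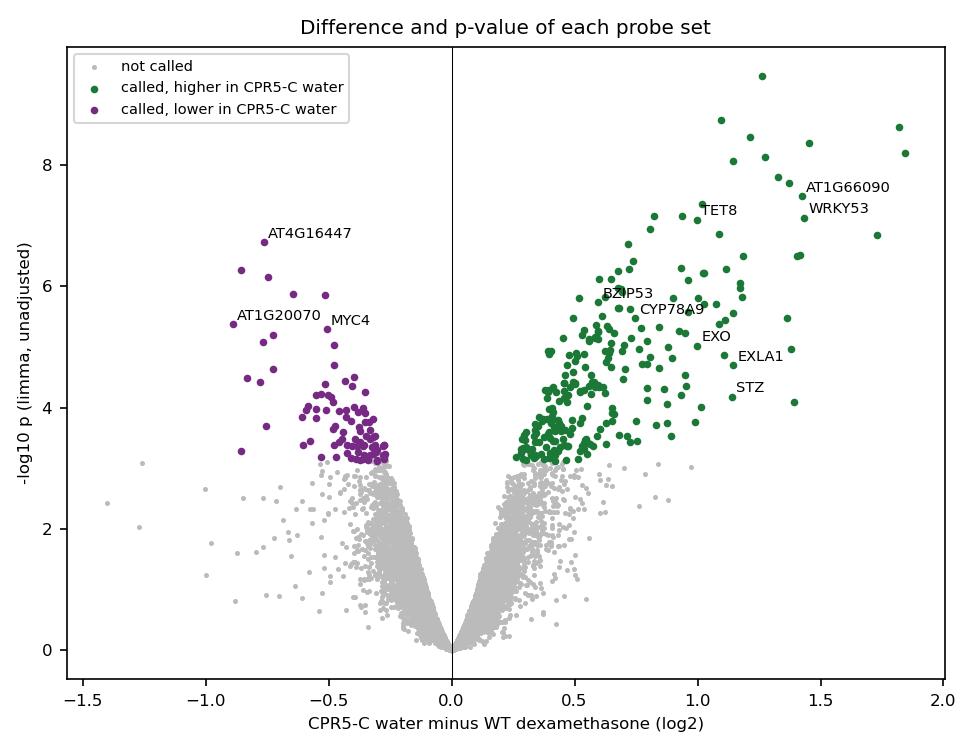
Difference between CPR5-C water and WT dexamethasone (x axis, log2) against the unadjusted limma p-value (y axis, -log10) for 22746 probe sets, with called probe sets coloured by direction. The 253 higher calls reach 1.84, and the 91 lower calls reach -0.89.

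The pair gave fewer calls than any other pair of groups in the series. The CPR5-C water arrays differed from WT water at 7.08% of probe sets and the WT dexamethasone arrays at 9.08%. The induced CPR5-C arrays differed from the uninduced line at 47.9%, from WT dexamethasone at 47.4% and from WT water at 49.2%. These pairs share arrays with each other, and apart from the last they share arrays with the pair described here. Over the 253 higher probe sets the median of the group means was 0.28 in CPR5-C water, -0.32 in WT dexamethasone, 0.46 in WT water and -0.54 in the induced line. Over the 91 lower probe sets it was -0.17, 0.24, -0.09 and 0.12 in the same order. The first pair of values in each set was fixed by the choice of probe sets.

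Of the 344 called probe sets, 169 had a single annotated gene (119 higher and 50 lower), 6 had several genes and 169 had none. Among the 10 largest rises 7 had no gene name, as did 5 of the 10 largest falls. The largest unnamed rise was 1.84 (SE 0.15). Gene symbols beyond a locus number were available for 25 called genes, 16 higher and 9 lower, and these are described below by role together with the 15 largest named differences in each direction.

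WRKY53 and STZ were among the 15 largest named rises, and BZIP53 was near the median of the higher calls. WRKY53 was the 1 call among the 7 probe sets of the WRKY list. The AP2/ERF (0 of 4) and NAC (0 of 1) lists had no call, beside 1.51% of all probe sets. Apart from the plastid-encoded genes, lists were matched by gene symbol or synonym, so family members known here only by locus can be missing. WRKY53 (AT4G23810), a transcription factor that promotes leaf senescence and acts in defence, read 0.58, 0.12 and 0.15 in CPR5-C water and -1.30, -1.14 and -1.01 in WT dexamethasone. All CPR5-C water arrays lay above all WT dexamethasone arrays, and the difference was 1.43 (SE 0.14, 95% interval 1.13 to 1.73, 2.70-fold, adjusted p 0.000112). STZ (AT1G27730), a zinc finger repressor of the abiotic stress response also known as ZAT10, read 0.87, 0.04 and 0.42 against -1.15, -0.52 and -0.42. Its difference was 1.14 (SE 0.20, interval 0.70 to 1.57, adjusted p 0.00909), with wide spread in both groups. BZIP53 (AT3G62420), a bZIP factor of low-energy and seed maturation programmes, read 0.37, 0.38 and 0.23 against -0.23, -0.25 and -0.35. The groups were tight here, and the difference was 0.60 (SE 0.08, 1.51-fold, adjusted p 0.000839). In WT water the means of these 3 genes were 0.72, 0.55 and 0.87. For WRKY53 and STZ the CPR5-C water arrays did not pass the test against WT water (-0.44, adjusted p 0.0798, and -0.10, adjusted p 0.856), and WT dexamethasone was lower than WT water by 1.87 and 1.24 on the log2 scale. BZIP53 was lower than WT water in both groups, by 0.54 and 1.14.

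EXLA1, EXO and TET8 were also higher in CPR5-C water, and each had its highest mean in WT water. EXLA1 and EXO were the 2 calls among 43 cell wall probe sets, a list with a median of 0.07, and TET8 was in no list. EXLA1 (AT3G45970), an expansin-like wall protein, read 0.60, 0.22 and 0.27 in CPR5-C water and -1.02, -0.22 and -1.11 in WT dexamethasone. Replicate 2 of WT dexamethasone stood nearest to the other group, and the difference was 1.15 (SE 0.18, interval 0.76 to 1.53, 2.21-fold, adjusted p 0.00395). EXO (AT4G08950), an extracellular protein that mediates brassinosteroid-promoted leaf growth, read 0.64, 0.94 and 0.28 against -0.51, -0.34 and -0.28. No array overlapped, and the difference was 1.0 (SE 0.15, interval 0.68 to 1.31, adjusted p 0.00240). The 3 WT water arrays read 2.64, 2.66 and 2.77 for EXLA1 and 2.79, 2.73 and 2.91 for EXO, above every array of both groups. Against WT water the CPR5-C water arrays were lower by 2.32 and 2.19 and the WT dexamethasone arrays by 3.47 and 3.19. TET8 (AT2G23810), a tetraspanin of plasma membrane and extracellular vesicles, read 0.66, 0.35 and 0.45 against -0.64, -0.35 and -0.56. It differed by 1.0 (SE 0.10, interval 0.79 to 1.21, adjusted p 0.000113), and its mean in WT water was 0.88.

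CYP78A9 and APS3 had another order of groups, with CPR5-C water the highest of all 4. CYP78A9 (AT3G61880), a cytochrome P450 that affects fruit and seed growth, read 0.77, 0.69 and 0.91 in CPR5-C water and -0.02, 0.01 and 0.14 in WT dexamethasone. Its difference was 0.74 (SE 0.10, 1.68-fold, adjusted p 0.00126), and it was also higher than in WT water by 0.85 (adjusted p 0.000145). WT dexamethasone did not pass the test against WT water for this gene (0.11, adjusted p 0.608). APS3 (AT4G14680), an ATP sulfurylase at the entry to sulfate assimilation, read 0.51, 0.47 and 0.64 against 0.06, 0.05 and 0.12. It was higher by 0.46 (SE 0.08, adjusted p 0.00533) and by 0.62 against WT water (adjusted p 0.0002), while the induced line had a mean of -1.68.

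**Figure D2:**
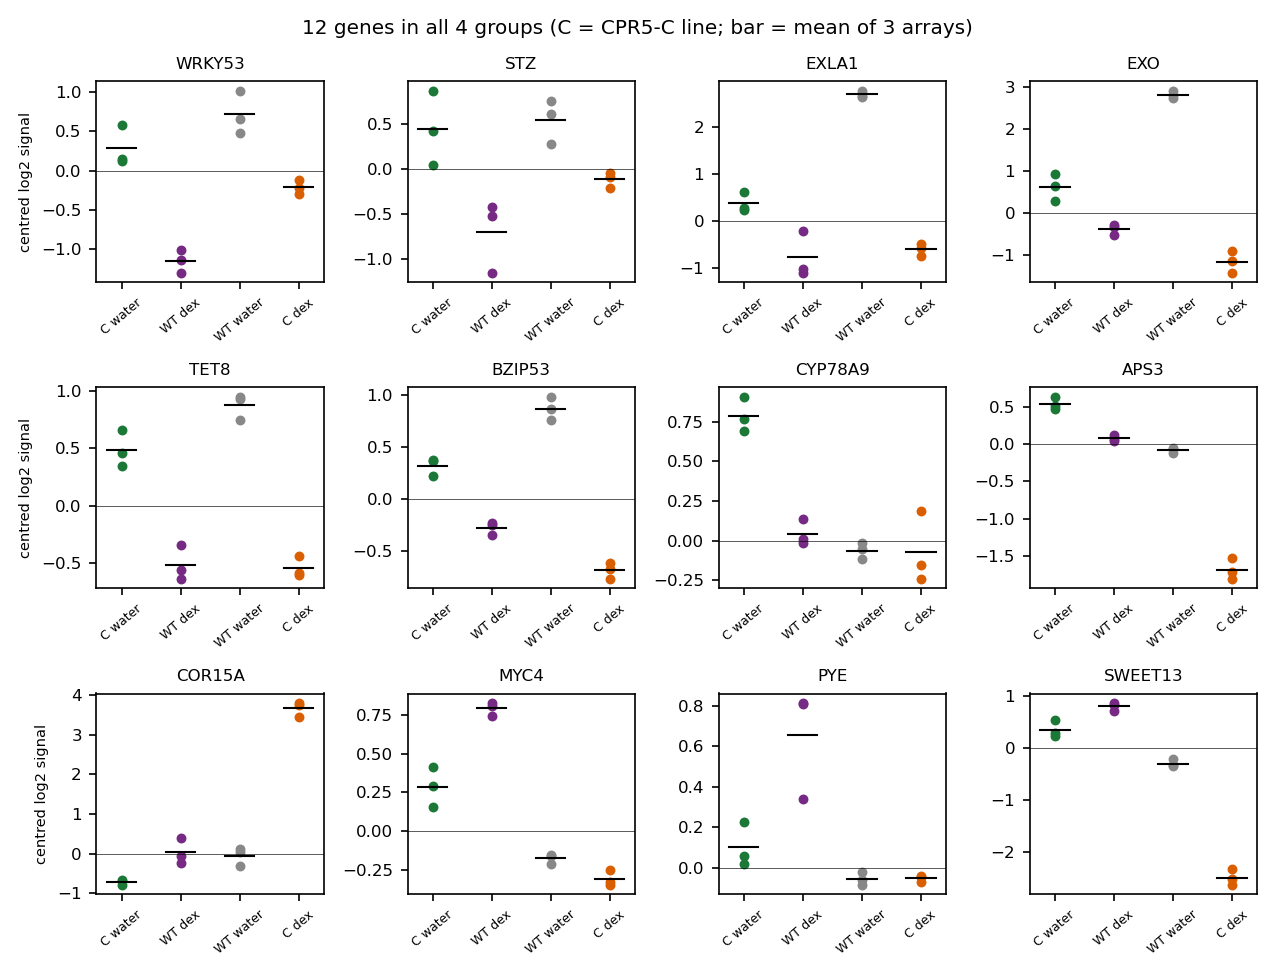
Centred log2 signal (y axis) of 12 named genes in the 4 groups (x axis), with 1 point per array and a bar at the mean of 3 arrays. EXLA1 and EXO are highest in WT water, CYP78A9 is highest in CPR5-C water, and COR15A is highest in the induced line.

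The jasmonate list had calls in both directions. OPCL1, a peroxisomal CoA ligase of jasmonate synthesis, read 0.53, 0.35 and 0.32 against -0.03, -0.13 and -0.01 and was higher by 0.46 (SE 0.08, adjusted p 0.00951). THI2.2, a thionin, read 0.65, 0.24 and 0.18 against -0.19, -0.34 and -0.18 and was higher by 0.59 (SE 0.12, adjusted p 0.0273). THI2.1, another thionin of the list, differed by 0.05 (interval -0.14 to 0.24, adjusted p 0.871). MYC4 (AT4G17880), a bHLH activator of jasmonate responses and glucosinolate genes, read 0.16, 0.29 and 0.41 against 0.81, 0.83 and 0.74. It was lower by 0.51 on the log2 scale (-0.51, SE 0.07, 1.42-fold, adjusted p 0.00169), and both groups lay above WT water, by 0.47 and 0.97. Of the other members measured, PDF1.2, a jasmonate and ethylene responsive defensin, differed by -0.88 with an interval of -2.13 to 0.37 (adjusted p 0.582). In all, 2 of 9 jasmonate probe sets were higher and 1 was lower, with a list median of -0.14. The calls of OPCL1 and THI2.2 were not stable to single arrays: OPCL1 lost its call without CPR5-C water replicate 1 or WT dexamethasone replicate 2 (adjusted p up to 0.0595), and THI2.2 lost it in every omission other than CPR5-C water replicate 3 (adjusted p up to 0.123).

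In each of the calcium (28 probe sets), nitrogen and phosphate (15), metal (9), sugar (23) and cold (12) lists 1 member was called, beside 1.51% of all probe sets. These counts cover only the members matched by symbol or synonym and not every gene of each role. CML23, a calmodulin-like calcium sensor, read 0.28, 0.07 and 0.50 against -0.34, -0.07 and -0.32 and was higher by 0.52 (SE 0.12, adjusted p 0.0394). AT1G59740, a transporter of the NRT1/PTR family, was higher by 0.65 (SE 0.12, adjusted p 0.0129). PYE (AT3G47640), a bHLH regulator of iron deficiency responses, read 0.23, 0.02 and 0.06 against 0.34, 0.81 and 0.82. Replicate 1 of WT dexamethasone stood below its group, and PYE differed by -0.55 (SE 0.11, adjusted p 0.0172). SWEET13 (AT5G50800), a sucrose exporter of phloem loading, read 0.29, 0.22 and 0.54 against 0.70, 0.82 and 0.87 and differed by -0.45 (SE 0.09, 1.36-fold, adjusted p 0.0293), with both groups above WT water by 0.65 and 1.10. COR15A (AT2G42540), a cold-induced chloroplast protein that protects membranes during freezing, read -0.77, -0.67 and -0.68 against -0.22, -0.05 and 0.41. COR15A differed by -0.75 (SE 0.15, interval -1.08 to -0.43, adjusted p 0.0209), was also below WT water by 0.66 (adjusted p 0.0155), and reached 3.81, 3.76 and 3.44 in the induced line. COR15B, its close relative, differed by -0.16 (adjusted p 0.483). The call was lost for COR15A without any 1 CPR5-C water array or without WT dexamethasone replicate 3 (adjusted p up to 0.0916). It was lost for PYE without CPR5-C water replicate 2 or 3 or WT dexamethasone replicate 2 or 3 (up to 0.0895), and for SWEET13 without CPR5-C water replicate 1 or 2 or WT dexamethasone replicate 2 or 3 (up to 0.136). CML23 lost it without replicate 1 or 3 of either group (up to 0.161), and AT1G59740 without replicate 3 of either group (up to 0.0761).

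The other called genes with a symbol had differences below 0.8 in size. AR781 (0.75, adjusted p 0.0184), SRC2, named for a soybean cold-regulated gene (0.43, adjusted p 0.0182), PTI1-4, a protein kinase (0.39, adjusted p 0.0175), TRM26 (0.34, adjusted p 0.0434) and VPS2.1, a subunit of the ESCRT-III membrane complex (0.29, adjusted p 0.0358), were higher. LCR69 (AT2G02100), a defensin also named PDF2.2, read -0.57, -0.56 and -0.99 against -0.10, -0.31 and 0.01 and differed by -0.57 (SE 0.12, adjusted p 0.0304). It was at 4.05, 4.19 and 4.25 in the induced line. FOLB2, an aldolase of folate synthesis (-0.38, adjusted p 0.0212), ETP2, an F-box protein that targets the ethylene regulator EIN2 (-0.36, adjusted p 0.0338), ASPGA1, an asparaginase (-0.33, adjusted p 0.0188), and NRPB7, a subunit of RNA polymerase II (-0.27, adjusted p 0.0482), were lower. Each of these 10 calls was lost when at least 1 array was omitted: PTI1-4, TRM26 and NRPB7 in all 6 omissions, ETP2 in all but CPR5-C water replicate 1, ASPGA1 in all but CPR5-C water replicate 3 and VPS2.1 in all but CPR5-C water replicate 2. AR781 and SRC2 lost theirs without CPR5-C water replicate 1 or 3 or WT dexamethasone replicate 1 or 2, FOLB2 without CPR5-C water replicate 2 or 3 or WT dexamethasone replicate 1 or 3, and LCR69 without CPR5-C water replicate 3 or WT dexamethasone replicate 1 or 3. The highest adjusted p among these omissions was 0.0928 for AR781, 0.118 for LCR69, 0.149 for ETP2 and 0.179 for NRPB7. Of the 25 genes with a symbol, 9 kept the call in all 6 omissions: WRKY53, STZ, BZIP53, EXLA1, EXO, TET8, CYP78A9, APS3 and MYC4.

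**Figure D3:**
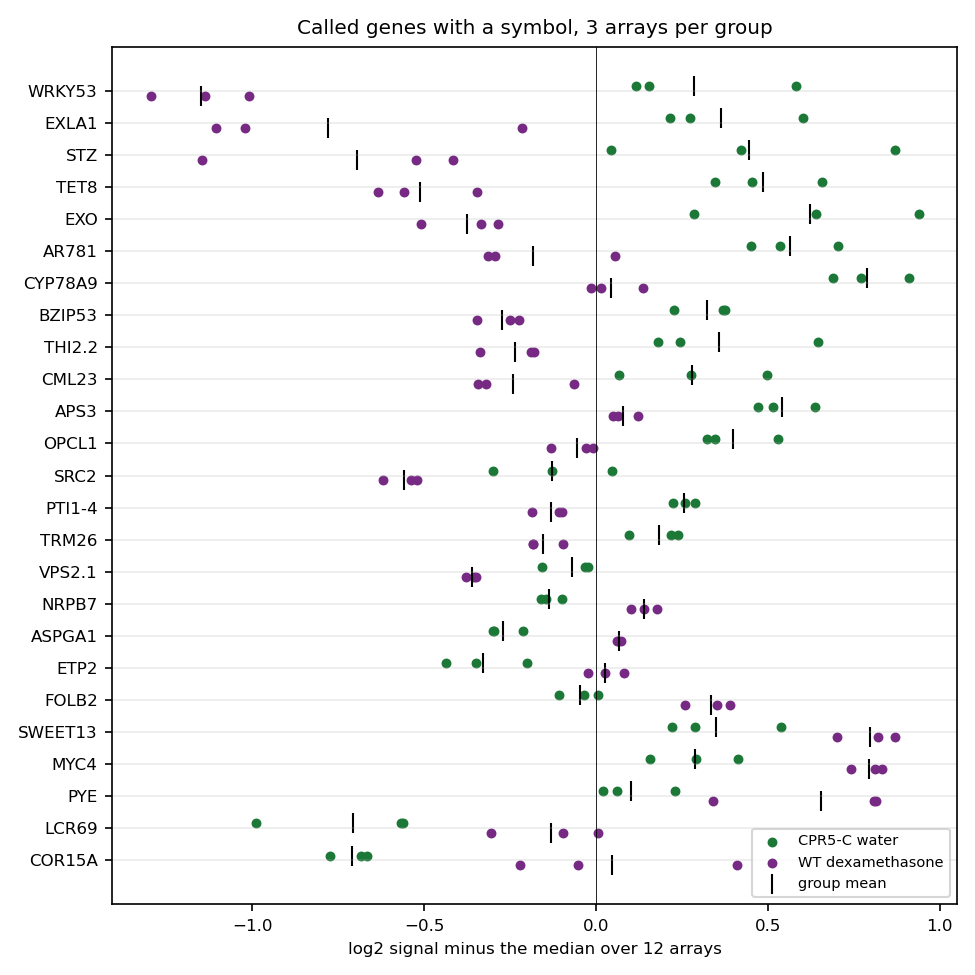
Centred log2 signal (x axis) of the 25 called genes with a symbol (y axis), with 1 point per array for CPR5-C water and WT dexamethasone and a bar at each group mean. The groups do not overlap for any of them, and the widest gap is in WRKY53.

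Genes known here only by locus made up most of the named differences. Of the 15 largest named rises, 11 were such genes. A symbol beyond a locus number was available for 16 of the 119 higher single-gene calls. The share of locus-only genes over the whole array was not counted. AT1G66090 read 1.0, 0.51 and 0.73 against -0.92, -0.51 and -0.60 and was higher by 1.42 (SE 0.13, 2.68-fold, adjusted p 6.79e-05). AT3G19680 read 0.70, 0.56 and 0.49 against -0.70, -0.49 and -0.71 and was higher by 1.21 (SE 0.09, adjusted p 1.98e-05). The SDs in CPR5-C water and WT dexamethasone were 0.25 and 0.22 for AT1G66090 and, narrower, 0.11 and 0.13 for AT3G19680. For AT1G66090 and AT3G19680 the WT water means were 1.09 and 2.06, and the induced means were -1.51 and -2.34. AT4G29780 was higher by 1.38 (SE 0.21), AT2G27080 by 1.19 (SE 0.13) and AT3G15450 by 1.02 (SE 0.09). AT1G32920, AT3G04640, AT2G25735, AT3G15630, AT3G59080 and AT4G27280 were higher by 1.03 to 1.14. All 15 of the largest named rises kept the call when any 1 of the 6 arrays was omitted. They also kept it under spike scaling, but that scaling moved all differences upward, so it is no separate support for the rises. Of the 16 higher genes with a symbol, 5 lost the call under spike scaling: APS3, PTI1-4, SRC2, TRM26 and VPS2.1.

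Among the largest named falls, AT1G20070 read -0.70, -0.31 and -0.32 against 0.31, 0.36 and 0.65 and differed by -0.89 (SE 0.12, 1.85-fold, adjusted p 0.00152). AT4G16447 read -0.12, -0.19 and -0.26 against 0.49, 0.60 and 0.62 and differed by -0.76 (SE 0.08, adjusted p 0.000215). The groups were clearly apart for both genes. AT1G13470 differed by -0.78 (SE 0.13), AT3G04000 by -0.77, AT1G79160 by -0.53 and AT5G15950 by -0.48. These 6 genes and MYC4 were the 7 of the 15 largest named falls that kept the call in all 6 omissions. AT2G44940, AT1G78170, AT5G05250, AT4G27380 and AT1G01320 differed by -0.59 to -0.47 and lost it in 3 to 5 of the omissions. Spike scaling left the call for 5 of these 15 falls and for 1 of the 9 lower genes with a symbol, COR15A. That scaling moved all differences upward and raised the median residual SD from 0.106 to 0.184.

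QQS (AT3G30720), a gene known for its effect on starch and the split of carbon and nitrogen, was the 1 named gene with a difference of at least 1 that did not pass the test, and it was picked out after its values were seen. It read -0.26, -0.34 and -0.33 in CPR5-C water and 1.95, 0.21 and 0.69 in WT dexamethasone. The groups did not overlap, but WT dexamethasone replicate 1 stood far above the other two. The difference was -1.26 (SE 0.30, interval -1.89 to -0.63, adjusted p 0.0523), and without that array it was -0.76 (adjusted p 0.0168). Over 18 alternatives its adjusted p ranged from 3.9e-06, under a spike scaling that pulled nearly all probe sets to one spread, to 0.154.

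Over the gene lists as a whole, 12 of 479 member probe sets were called, 8 higher and 4 lower. That is 2.51% of members beside 1.51% of all probe sets, and 26 of the 36 lists had no call. Members came only from the single-gene probe sets, of which 169 of 13513 were called. In the cell wall list XTH19, a wall-modifying transglucosylase, differed by -0.77 (interval -1.23 to -0.31, adjusted p 0.112). In the WRKY list 1 of 7 was higher and the median was 0.12. WRKY22, a factor of pattern-triggered immunity, differed by 0.48 (interval 0.18 to 0.78, adjusted p 0.132). Among 16 senescence and autophagy probe sets WRKY53 was again the 1 call, and ATG8D, an autophagosome protein, differed by -0.32 (adjusted p 0.0875). Salicylic acid genes had 0 calls of 5, and UGT74F1, a salicylic acid glucosyltransferase, was nearest with -0.17 (adjusted p 0.253). Pattern recognition genes had 0 of 13, and PUB23, a ubiquitin ligase that dampens immune signalling, differed by 0.64 (interval 0.29 to 0.98, adjusted p 0.0751).

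The photosynthesis lists had no calls, nuclear or plastid-encoded, beside 1.51% of all probe sets called. At that share, lists of the sizes given in this paragraph would hold few calls or none. There were 0 of 17 for nuclear-encoded light reactions (median -0.01), 0 of 4 for the Calvin cycle and 0 of 69 for plastid-encoded genes (median 0.0007). The plastid-encoded members with the largest differences were ndhG, a subunit of the NDH complex, at 0.76 (interval 0.28 to 1.24, adjusted p 0.127), and rpoC1, a subunit of the plastid RNA polymerase, at 0.53 (interval 0.20 to 0.85, adjusted p 0.119). They passed in 4 and 3 of 18 alternatives. RCA, the activase of Rubisco, differed by 0.02 with an interval of -0.10 to 0.14. In chlorophyll synthesis 0 of 9 were called, and CHLI2 and PORB, a magnesium chelatase subunit and a protochlorophyllide reductase, differed by -0.30 (interval -0.46 to -0.14, adjusted p 0.0724) and 0.39 (interval 0.16 to 0.62, adjusted p 0.0996). The lists of nuclear pore (0 of 5), auxin (0 of 19), heat shock (0 of 10), oxidative stress (0 of 82), ubiquitin (0 of 24) and histone genes (0 of 17) had no calls either. Guard cell, epidermis and trichome markers had 0 of 7 (median 0.01) and root and flower markers 0 of 6, and SWEET11, the 1 vascular marker measured, differed by -0.18 (adjusted p 0.218). A bulk leaf sample cannot tell fewer cells of a type from less RNA per cell.

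**Figure D4:**
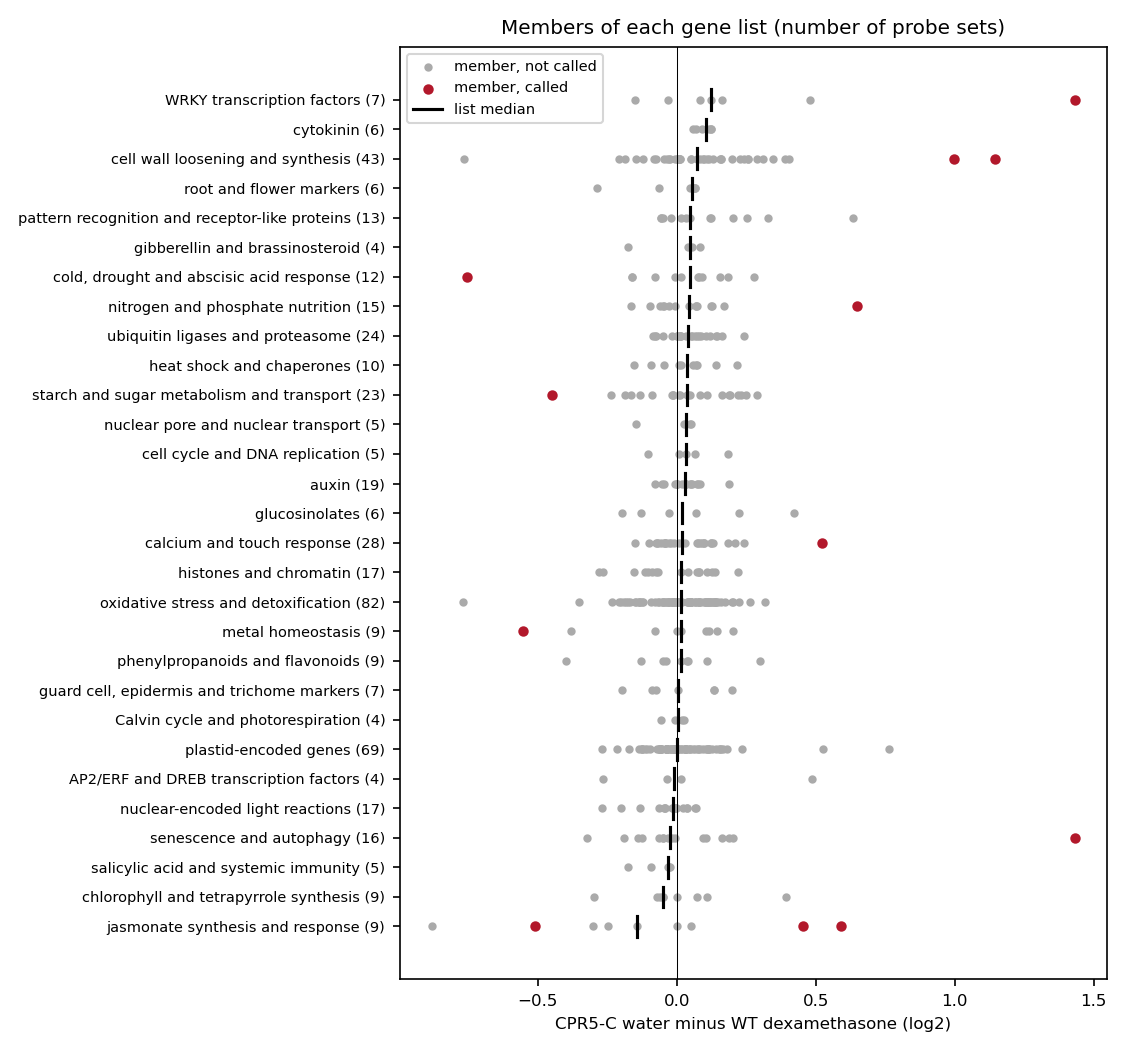
Difference between CPR5-C water and WT dexamethasone (x axis, log2) for the members of each gene list with at least 4 probe sets (y axis, number of probe sets in brackets), called members in red and the list median as a bar. List medians lie between -0.14 and 0.12, with single called genes standing apart.

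The comparison of the induced CPR5-C line with WT water shares no array with the pair described here, although both use the same fitted spread. Of the 344 probe sets called here, 292 were also called there, which is 84.9% of the calls here and 2.61% of the calls there, beside 49.2% of all probe sets called there. The direction was opposite for 248 of them and the same for 44. Of the 253 higher probe sets 202 were called lower in the induced line, and of the 91 lower ones 46 were called higher in it. Over all 22746 probe sets, 5496 were called lower and 5686 higher in that comparison.

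**Figure D5:**
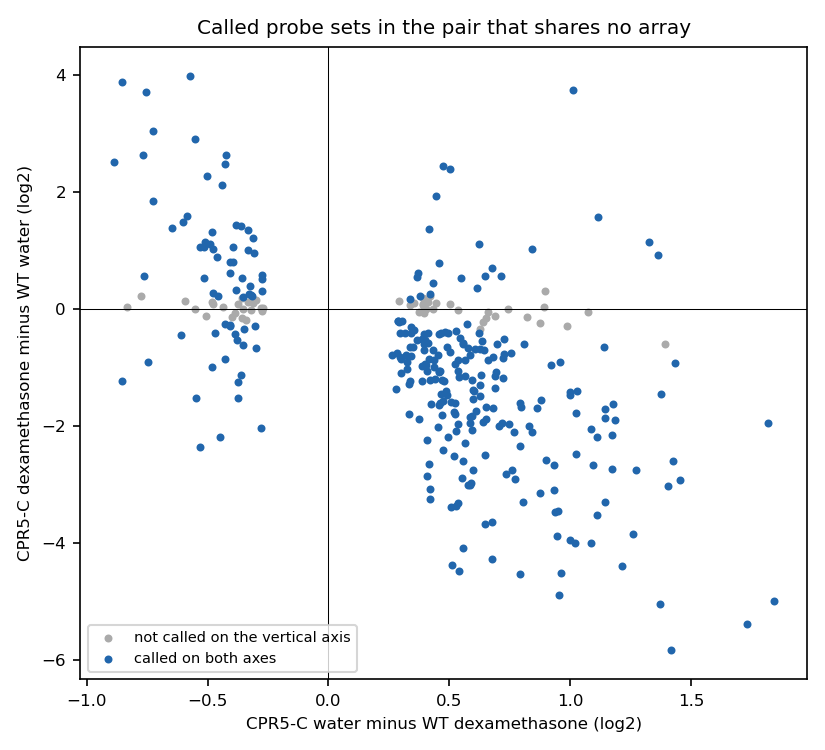
Difference between CPR5-C water and WT dexamethasone (x axis, log2) against that between the induced CPR5-C line and WT water (y axis, log2) for the 344 called probe sets, coloured by the call on the vertical axis. Most points lie in the lower right, where 202 probe sets are called higher on one axis and lower on the other.

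The 20 named genes highest in the induced line over WT water, by 4.42 to 8.65, had 0 calls in the pair described here, where 1.51% of all probe sets were called, and a median difference of -0.02, from -0.77 for XTH19 to 0.28 for LTI30. BGLU45, a beta-glucosidase that was higher by 8.65 in the induced line, differed here by 0.18 (interval 0.01 to 0.34, adjusted p 0.345). SAG29, a senescence-associated sugar transporter higher by 6.55 there, differed by -0.02 (interval -0.31 to 0.27). The 20 named genes lowest in the induced line, by -6.24 to -3.50, had 8 calls here, all higher in CPR5-C water, beside 1.11% of all probe sets called higher. Their median difference was 0.29. Both sets of 20 came only from the 13513 single-gene probe sets, of which 169 were called here, 119 of them higher. EXO, AT3G19680, AT2G25735 and AT3G15450 were among the 8, with differences of 1.0 to 1.21. The remaining 12 were not called and ranged down to -0.38 for BHLH101, a bHLH factor of iron uptake.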

How the data were processed

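RNA from mature leaves was hybridised to 12 ATH1 arrays. Per the submitters' processing notes the deposited values came from RMA; no version or setting of it is given in the sources used here. The authors' deposited log2 values have a median of 0 over the 12 arrays in each probe set; the log base is not stated and was taken as that of RMA. Of 22810 probe sets, 64 controls were left out. A linear model with a mean per group was fitted to all 12 arrays with limma 3.58.1 in R 4.3.3 (lmFit, eBayes, 8 residual and 5.79 prior degrees of freedom), and p-values were adjusted over 22746 probe sets (Benjamini-Hochberg). On simulated data with 200 changed probe sets of 22746, 73% of the changes of 0.5 and 98% of those of 1 were recovered, with 8 false calls. The simulated noise was normal and independent between probe sets and arrays. It held no deviations shared across an array, so these figures may not hold for the real arrays. The number of arrays limits the precision. Symbols came from the platform annotation updated through RefSeq: 13513 probe sets had a single gene, 503 several and 8730 none. Named genes were the 15 largest non-overlapping calls in each direction and, per list, as many as 4 members ranked by p; the naming of every called gene with a symbol, of QQS and of the genes of the induced line was chosen after values were seen. The comparison and the gene lists were chosen with earlier results of these data known, and 5 wrong name matches were removed from the lists. List members were matched by whole symbol or synonym among single-gene probe sets, and plastid-encoded genes by chromosome. Family members known here only by locus can therefore be missing from the lists. Alternatives changed the block, arrays, scaling, variance model and threshold.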

Additional observations from a re-analysis of the deposited data

How the results depend on the processing

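The count of 344 calls stayed within 1.5 times under 7 of the 12 alternatives that kept all 6 arrays. Quantile normalization gave 1042 calls, 268 of them of at least 1 in size, and a median over all probe sets of -0.00093. Array weights gave 721 calls. Poly-A spike scaling gave 225 calls, 56 of at least 1, and a median of 0.120. The spike means ranged from -0.587 to -0.090 among the 3 induced arrays, so subtracting them added shared deviations to every probe set. The median residual SD went from 0.106 to 0.184 and the prior degrees of freedom from 5.79 to 84.5, which pulls each probe set to one common spread. Adjusted p-values of single genes under that scaling are therefore unreliable in both directions: QQS, with a main adjusted p of 0.0523, reached 3.9e-06 there despite its spread. Over all its alternatives QQS ranged from 3.9e-06 to 0.154 and passed in 5 of 18. Testing only single-gene probe sets left 147 calls, 14 of at least 1, beside 169 single-gene calls in the main fit. An adjusted p under 0.01 left 168 of the 344 calls. Omitting 1 of the 6 arrays gave 209 to 277 calls, 28 to 46 of at least 1, and medians of 0.0050 to 0.016. Array SDs were 0.131 to 0.164 in the pair and 0.677 to 0.693 in the induced line. Quantile normalization gives all arrays one distribution, which widens the values of arrays with a small SD, and the median residual SD rose to 0.150. The cause of the added calls was not tested for quantile normalization or for array weights. Between CPR5-C water and WT dexamethasone, same-numbered samples had r of -0.18, 0.02 and -0.21 for their deviations from the group means. Over all 6 pairs of groups r ranged from -0.21 to 0.36, the highest for replicate 1 of both WT groups, and no pair of groups had all 3 above 0.1. As 0 of 3 CPR5-C water arrays correlated best with their own number either, the numbers were not taken as pairing. With the replicate block the fit gave 261 calls, 38 of at least 1. Of the 48 named calls it left out NRPB7, SWEET13, AT5G05250, ETP2, CML23, TRM26, VPS2.1 and LCR69, and it added QQS (adjusted p 0.0399). No named called gene changed direction under any alternative.

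The 3 arrays per group, the centring, the unnamed probe sets and the joint change of genotype and spray limit what the pair can show.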
